A study of Mus musculus with 16 samples.

Results

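The 6 genes described here encode parts of the machinery that decides whether a granulocyte dies or stays arrested: the BH3-only genes Pmaip1 and Bcl2l11, the initiator caspase gene Casp9, the gasdermin gene Gsdme and the cyclin-dependent kinase (CDK) inhibitor genes Cdkn1a and Cdkn1b. They were chosen by symbol, with their ZT15 against ZT3 values already known, from the 1413 genes that the authors' deposited tables list for duodenal eosinophils. Of these members, 3 are among the 172 genes listed for CD11c-high cells and 5 among the 1340 listed for CD11c-low cells. Pmaip1 and Bcl2l11 are in both tables, Gsdme is listed for CD11c-high cells alone, and Casp9, Cdkn1a and Cdkn1b are listed for CD11c-low cells alone.

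RNA was sequenced from eosinophils sorted out of the lamina propria of the mouse duodenum by surface CD11c, the integrin alpha X chain, as high or low. The 4 groups of 4 libraries were CD11c-high cells at zeitgeber time (ZT, counted in hours from lights on) 15, CD11c-high cells at ZT 3, CD11c-low cells at ZT 15 and CD11c-low cells at ZT 3, with 1000 sorted cells per library. The labels call ZT 15 PM and ZT 3 AM, and give no strain, genotype, age or sex for the mice. Whether a group's libraries are separate mice is not in the labels. The deposited errors therefore cover only how far these samples spread, and that spread may be technical.

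The tables hold no value of a single library, so the spread of each member over samples could not be shown. Per the file headers, each listed gene has a mean normalised count over the libraries of its subset, a shrunken log2 fold change of ZT15 over ZT3 with a posterior standard deviation (SD), and an s-value. The s-value estimates what share of signs is wrong among a gene and those ranked before it, and every listed gene is under 0.05. A gene's own false sign rate, the estimated probability that its own direction is wrong, was recovered here from successive s-values. A gene missing from a table may have been tested and not called, or not tested at all. Fewer eosinophils carrying a transcript cannot be told apart from less of it per cell. Because the members were chosen from this contrast, their values are a description and no test of them was made.

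Granulocytes are short-lived cells that die by apoptosis unless survival cytokines hold it back. BH3-only proteins start the mitochondrial route by binding the survival proteins of the BCL2 family, after which cytochrome c reaches the apoptosome and activates caspase-9. Gasdermin E is a pore-forming protein that executioner caspases can cleave, turning apoptosis into a lytic death. The CDK inhibitors p21 (Cdkn1a) and p27 (Cdkn1b) bind cyclin-CDK complexes and keep cells out of the division cycle, and p21 also has roles outside it.

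The promoter windows of Bcl2l11 and Cdkn1a are shown because these genes were higher at ZT15 and are textbook targets of FOXO and p53 factors. The sequences are RefSeq's, on GRCm38.p6, a different build from the GRCm39 named in the submitters' processing notes. Each runs 5′ to 3′ from 250 bases before to 50 after an annotated transcription start, and 5 of the 6 members were matched, with 7 windows between them. Pmaip1 was the member without a window, so its promoter was not searched for any motif. In the Bcl2l11 window (chr2:128125788-128126087, plus strand, at the more upstream of 2 annotated starts) the capitals mark the forkhead motif GTAAACA. In the Cdkn1a window (chr17:29090729-29091028, plus strand, at the more upstream of 2 annotated starts) they mark matches to the p53 decamer, the repeat unit of a p53 response element.
Bcl2l11: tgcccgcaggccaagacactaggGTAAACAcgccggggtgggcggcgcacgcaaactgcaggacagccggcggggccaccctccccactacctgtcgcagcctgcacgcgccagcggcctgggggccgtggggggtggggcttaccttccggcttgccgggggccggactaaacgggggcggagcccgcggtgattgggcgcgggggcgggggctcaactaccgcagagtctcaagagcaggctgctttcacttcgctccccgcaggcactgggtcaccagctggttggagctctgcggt
Cdkn1a: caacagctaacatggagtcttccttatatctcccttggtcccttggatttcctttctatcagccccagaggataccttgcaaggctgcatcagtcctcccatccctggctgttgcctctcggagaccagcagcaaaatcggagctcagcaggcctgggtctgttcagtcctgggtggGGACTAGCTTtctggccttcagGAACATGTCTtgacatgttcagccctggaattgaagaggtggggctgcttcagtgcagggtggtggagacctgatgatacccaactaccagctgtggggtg

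The forkhead match in the upstream Bcl2l11 window lay 221 to 227 bases before its start, and the same letters on either strand occurred in 3.65% of 32851 promoter windows. No other member window held this motif, the downstream Bcl2l11 window included. The E-box CACGTG, found in 7.15% of all windows, the cAMP response hexamer TGACGT (7.51%) and the glucocorticoid response hexamer AGAACA (19.0%) were in none of the 7 member windows, on either strand. The p53 motifs were added after the sequences had been read. The decamer was in 8.36% of all windows and, among member windows, at 2 places in the upstream Cdkn1a window, 64 to 73 and 42 to 51 bases before its start. These lie 12 bases apart. A pair of decamers with 0 to 13 bases between them was in 24 of the 32851 windows. Among the 7 member windows, the upstream Cdkn1a window was the only one. An exact pair with no base between them was in 3 windows, none of them a member window. In the upstream Cdkn1a window, the bases right after GAACATGTCT, tgacatgttc, miss the decamer pattern at their first base alone. Only exact matches were searched, so an adjacent pair with such a mismatch was not counted. A match says only that these letters are present. All 7 member windows were above the median GC content of 52.7%, from 54.7% in the upstream Cdkn1a window to 74.0% in one of the 2 Bcl2l11 windows. The upstream Cdkn1a window held 2 CpG dinucleotides, against 23 to 38 in the other member windows and a median of 7.0 over all windows.

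Among the BH3-only genes, Pmaip1 fell and Bcl2l11 rose at ZT15 in both subsets. Pmaip1 (ENSMUSG00000024521.9) encodes NOXA, which binds mainly the survival protein MCL1. In the authors' deposited tables, its log2 fold change was -0.29 ± 0.21 (posterior SD) in CD11c-high cells and -1.06 ± 0.24 in CD11c-low cells. These are 0.819-fold in CD11c-high cells and 0.479-fold in CD11c-low cells, computed from the authors' deposited tables, and the estimated change was -18.1% in CD11c-high cells and -52.1% in CD11c-low cells. With 1 SD either side, the fold ran from 0.708 to 0.947 in CD11c-high cells and from 0.406 to 0.564 in CD11c-low cells. The s-values in the authors' deposited tables were 0.0232 in CD11c-high cells and 4.73e-07 in CD11c-low cells. Own false sign rates were 0.0468 in CD11c-high cells, just under 0.05, and 3.19e-06 in CD11c-low cells.

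Among the decreases of each table, that of Pmaip1 was of middling size in CD11c-high cells and near the largest in CD11c-low cells. By size, its decrease ranked 38th of the 79 decreases in CD11c-high cells and 12th of the 640 in CD11c-low cells, per the authors' deposited tables. Its mean normalised count in the authors' deposited tables was 545 in CD11c-high cells and 852 in CD11c-low cells. The tables were normalised separately, so these levels are not compared between subsets.

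Bcl2l11 (ENSMUSG00000027381.17) encodes BIM, a BH3-only protein that binds all the main BCL2 survival proteins and is a chief trigger of death when cytokines are withdrawn. The authors' deposited tables gave it 0.28 ± 0.18 in CD11c-high cells and 0.34 ± 0.19 in CD11c-low cells on the log2 scale. The increase was thus 1.21-fold in CD11c-high cells and 1.26-fold in CD11c-low cells, values that differ by less than either SD. The s-values in the authors' deposited tables were 0.0143 in CD11c-high cells and 0.0103 in CD11c-low cells, with own false sign rates of 0.0337 in CD11c-high cells and 0.0303 in CD11c-low cells. BIM has several splice forms, which a value per gene does not separate.

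The 2 genes of the lytic and caspase steps were each listed for a single subset and close to the limit of the call. Casp9 (ENSMUSG00000028914.14), whose product is activated on the apoptosome, was listed as lower in CD11c-low cells, at -0.40 ± 0.36 (0.757-fold, s-value 0.0482) in the authors' deposited table. Its mean normalised count of 31.4 there ranked 1325th of 1340 in the authors' deposited table, and its own false sign rate was 0.118. Gsdme (ENSMUSG00000029821.16) was listed as higher in CD11c-high cells, at 0.25 ± 0.21 (1.19-fold, s-value 0.0439) in the authors' deposited table. The mean normalised count of Gsdme was 282 in the authors' deposited table, and its own false sign rate was 0.0802. For both genes the change was little more than 1 SD.

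Of the CDK inhibitors, Cdkn1a rose in CD11c-low cells, and Cdkn1b was listed there as slightly lower. Cdkn1a (ENSMUSG00000023067.15) had a log2 fold change of 0.68 ± 0.21 in the authors' deposited table of CD11c-low cells. That is a 1.60-fold increase at ZT15, running from 1.38 to 1.85 within 1 SD, with an s-value of 8.87e-05 in the authors' deposited table. It ranked 42nd by size among the 700 increases, with 915 as its mean normalised count, per the authors' deposited table. Cdkn1b (ENSMUSG00000003031.15) was at -0.29 ± 0.25 (0.818-fold, s-value 0.0465) in the authors' deposited table, with an own false sign rate of 0.114. Neither gene is listed for CD11c-high cells, which does not show that they were steady there.

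**Figure D1:**
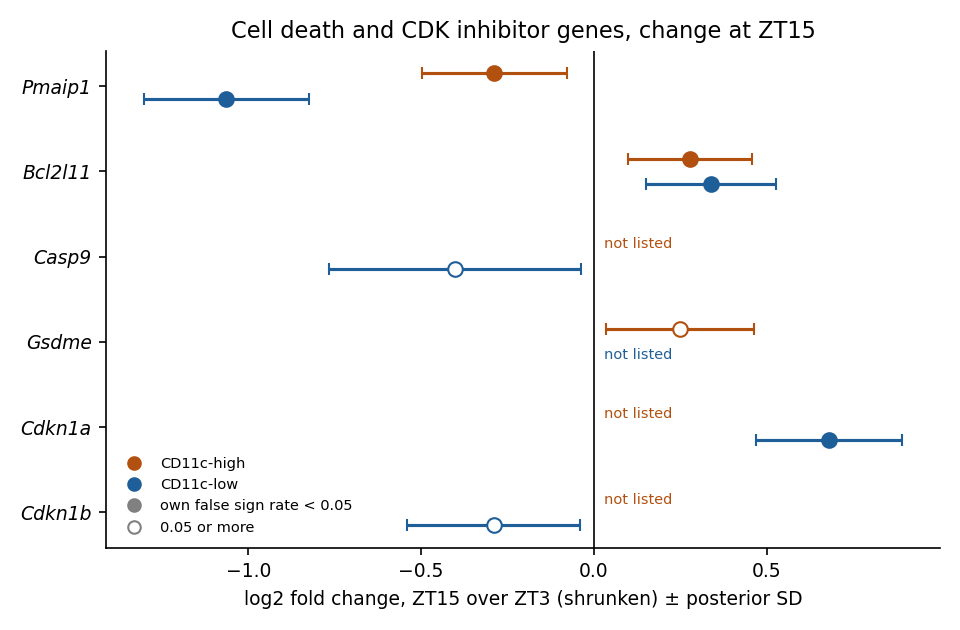
Shrunken log2 fold change of ZT15 over ZT3 (horizontal axis) for each of the 6 genes, with bars of 1 posterior SD, in CD11c-high (orange, upper) and CD11c-low cells (blue, lower). Filled points have an own false sign rate under 0.05: Pmaip1 and Bcl2l11 in both subsets and Cdkn1a in CD11c-low cells, where Pmaip1 lies farthest from 0 at -1.06.

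Divided by transcript length, the count of Cdkn1a was the highest and that of Casp9 the lowest of the 5 members in CD11c-low cells. Dividing the deposited mean normalised counts by the median length of a gene's protein-coding transcripts in GENCODE M21 gave 593 per kb for Cdkn1a, 336 for Pmaip1, 309 for Bcl2l11, 85.4 for Cdkn1b and 20.98 for Casp9. The median over the 1269 listed genes with a length was 177 per kb. In CD11c-high cells the same division gave 236 per kb for Bcl2l11, 215 for Pmaip1 and 113 for Gsdme, beside a median of 213 over 153 genes. No spread over libraries is available for these levels, so the order of close neighbours such as Pmaip1 and Bcl2l11 is not resolved. How reads were counted is not given, so whether counts scale with transcript length here is unknown.

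The members were mixed in direction. In CD11c-high cells 2 of the 3 listed members were higher at ZT15, beside 54.1% of all listed genes, and 1 was lower, beside 45.9%. In CD11c-low cells 2 of the 5 were higher, beside 52.2%, and 3 were lower, beside 47.8%. An own false sign rate under 0.05 was reached by 2 of 3 members in CD11c-high cells, against 45.3% of that table, and by 3 of 5 in CD11c-low cells, against 52.7%. Nothing is read from these shares, since the members were chosen from the same contrast. The median size of the members' log2 change was 0.28 in CD11c-high cells and 0.40 in CD11c-low cells. Over all genes of the same tables it was 0.28 in CD11c-high cells and 0.37 in CD11c-low cells.

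**Figure D2:**
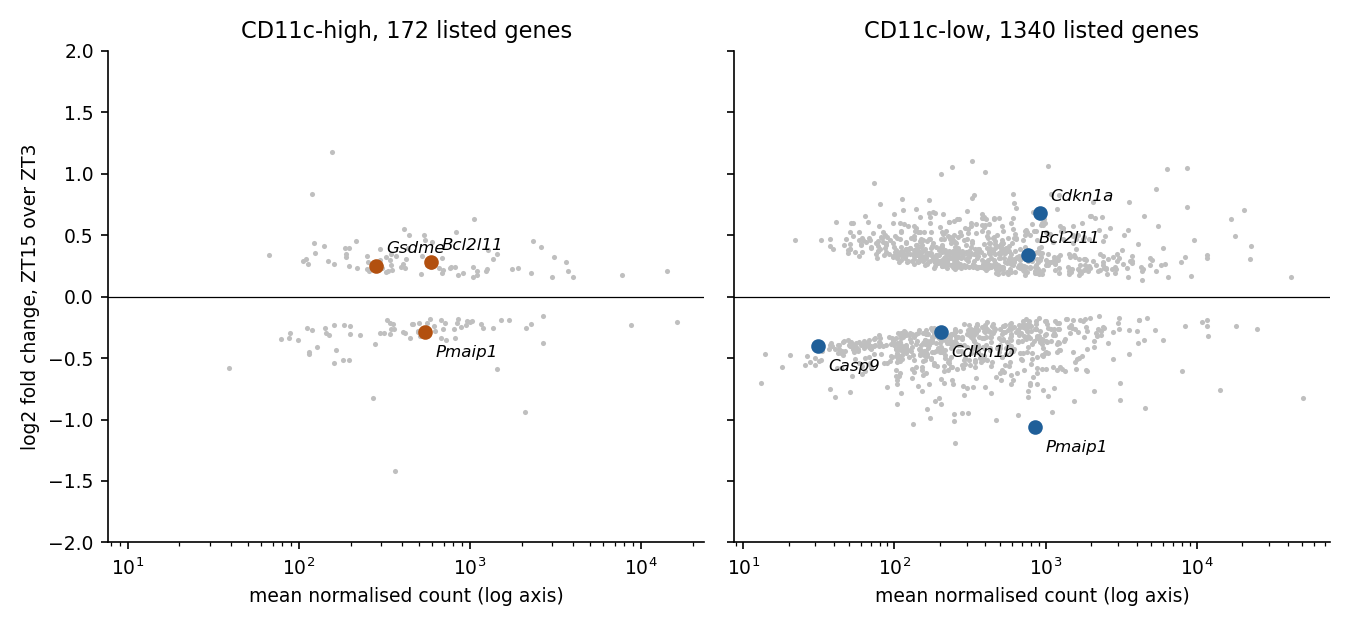
Log2 fold change of ZT15 over ZT3 (vertical axis, shown from -2 to 2) against mean normalised count (log axis) for all genes listed for CD11c-high (left) and CD11c-low cells (right), with the members in colour. Beyond the axis lie 11 genes in CD11c-high cells and 19 in CD11c-low cells, of which 9 in CD11c-high cells and 14 in CD11c-low cells are immunoglobulin segments. In CD11c-low cells Pmaip1 lies below nearly all genes in view and Casp9 at the low end of counts.

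For Pmaip1 and Bcl2l11 the change can be set side by side between subsets. The 99 genes in both tables are 57.6% of the CD11c-high and 7.39% of the CD11c-low table, and immunoglobulin segments apart there are 97. CD11c-high minus CD11c-low, the deposited log2 changes differed by 0.77 ± 0.32 for Pmaip1 (root of the summed squared SDs), the 4th largest difference in size of the 97. For Bcl2l11 the difference was -0.06 ± 0.26, within its SD and ranked 78th. Both tables were taken as shrunken, by an unknown amount. The median size of change over the 97 genes was 0.26 in CD11c-high cells and 0.46 in CD11c-low cells, so smaller deposited changes in CD11c-high cells were general among shared genes. After the CD11c-high changes were scaled by 1.79 to make those medians equal, the difference was 0.55 ± 0.44 for Pmaip1 and 0.16 ± 0.37 for Bcl2l11. The ranks above are of the deposited differences and do not hold after scaling. Arpc3 (-1.75) and Laptm4a (-0.90), ranked 9th and 49th as deposited, then differed more than Pmaip1.

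The genes whose pair of changes was nearest to that of Pmaip1 were Tmed7, a secretory cargo receptor gene, the ribosomal protein gene Rps12 and Rlim, a ubiquitin ligase gene. Their distances over the 2 subsets were 0.12, 0.13 and 0.21 in log2 units, among 91 candidates. The authors' deposited tables gave Tmed7 -0.30 ± 0.27 in CD11c-high cells and -0.94 ± 0.33 in CD11c-low cells. Nearest to Bcl2l11 were Lilra6, a leukocyte immunoglobulin-like receptor gene, the organic anion transporter gene Slco4a1 and the kinase gene Riok1, at distances of 0.02, 0.06 and 0.07. By the authors' deposited tables, Lilra6 had log2 changes of 0.29 ± 0.20 in CD11c-high cells and of 0.35 ± 0.21 in CD11c-low cells. Only 2 values define each pattern.

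**Figure D3:**
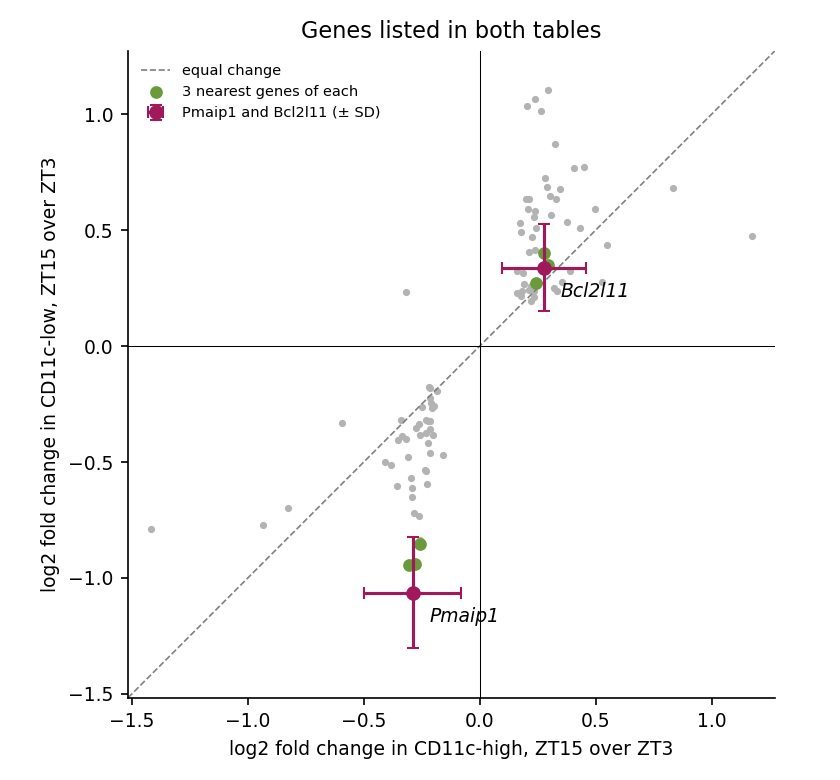
Log2 fold change of ZT15 over ZT3 in CD11c-high (horizontal axis) and CD11c-low cells (vertical axis) for the 97 genes in both tables, immunoglobulin segments left out, with the line of equal change. Bcl2l11 lies near the line, and Pmaip1 far below it, at -0.29 in CD11c-high cells and -1.06 in CD11c-low cells; bars are 1 posterior SD and green points are the 3 nearest genes of each.

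Further genes of the death and arrest pathways were counted around the members. Of 163 gene symbols in 16 lists covering apoptosis, pyroptosis, necroptosis, the cell cycle, p53, FOXO, survival cytokines, stress and the clock, 4 were listed for CD11c-high cells, 3 higher and 1 lower. In CD11c-low cells, 21 were listed, 12 higher and 9 lower, with a median log2 change of 0.29, beside 0.21 over all listed genes. Over all listed genes, 54.1% were higher in CD11c-high cells and 52.2% in CD11c-low cells, and no lean is read from the list counts. The members are counted in the list numbers. Since the number of genes tested is unknown, the share of tested genes that were called cannot be set beside them. The lists were written with earlier results of these data known.

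None of the 8 survival genes of the BCL2 family, such as Mcl1 and Bcl2l1, and none of its 3 pore formers, Bax, Bak1 and Bok, was listed in either table. No other BH3-only gene of the 8 was listed beside Pmaip1 and Bcl2l11. Cycs, the cytochrome c gene, was listed in CD11c-low cells opposite in direction to Casp9, at 0.34 ± 0.27 in the authors' deposited table. Its mean normalised count there was 85.0. Own false sign rates were above 0.05 for both genes, at 0.0929 for Cycs and 0.118 for Casp9, so the opposition is not secure. Of 9 inhibitor of apoptosis genes, the authors' deposited table of CD11c-low cells lists Birc6, which encodes a large ubiquitin ligase that blocks caspases, at -0.42 ± 0.22. Tnfrsf1b, the TNF receptor 2 gene, was the one listed death receptor list gene of 9, at 0.42 ± 0.30 in the authors' deposited table of CD11c-low cells.

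Casp1, the inflammasome caspase gene, was the single other listed gene beside Gsdme in the list of 11 gasdermin and inflammasome genes. The authors' deposited table has it higher in CD11c-low cells by 0.52 ± 0.29 (s-value 0.00843). Gsdmd, which encodes the gasdermin that caspase-1 cleaves, was not listed in either table, nor was any of the 3 necroptosis genes.

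The p53 list was split in CD11c-low cells, 3 higher and 3 lower out of 20 genes, beside 52.2% higher and 47.8% lower over all listed genes. Of its known p53 targets, Cdkn1a rose and Pmaip1 fell. Mdm2, the p53 ubiquitin ligase gene and itself a target, fell by 0.53 ± 0.20 (s-value 0.000510) in the authors' deposited table. The authors' deposited table has Btg2, an antiproliferative gene, higher by 0.31 ± 0.12 and averaging 11755 normalised counts. The remaining 2, named after their values were seen because they fell outside the naming rule, were Gadd45a (0.29 ± 0.15) and Trp53inp1 (-0.54 ± 0.34) in the authors' deposited table. Trp53 itself was not listed.

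The FOXO list was split as well in CD11c-low cells, 2 higher and 2 lower of 13 genes. Over all genes listed there, 52.2% were higher and 47.8% lower. Bcl2l11 rose and Cdkn1b was listed as lower, and both are known FOXO targets. Txnip, a thioredoxin inhibitor gene, was at 0.28 ± 0.21 and Sod2, the mitochondrial superoxide dismutase gene, at -0.24 ± 0.17 in the authors' deposited table. Own false sign rates were above 0.05 for Txnip (0.0778), Sod2 (0.0818) and Cdkn1b (0.114).

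Of 11 genes of eosinophil survival signalling, 3 were among the 1340 listed for CD11c-low cells and none among the 172 listed for CD11c-high cells, a difference that was not tested. Csf2rb, the receptor chain shared by interleukin-5, interleukin-3 and GM-CSF, rose by 0.33 ± 0.16 in the authors' deposited table. Jak2, the kinase bound to that chain, rose by 0.52 ± 0.23 (s-value 0.00222) in the authors' deposited table. Pim1, a survival kinase gene induced through STAT5, fell by 0.38 ± 0.17 (s-value 0.00309) in the authors' deposited table. Il5ra, the interleukin-5 receptor chain that marks eosinophils, was not listed.

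In the cell-cycle lists, Cdk6, which encodes a G1 kinase, was the single gene called of 18 cyclin, CDK and RB-E2F genes. It rose by 0.34 ± 0.23 (s-value 0.0113) in CD11c-high cells in the authors' deposited table. Of 18 proliferation genes, the authors' deposited table of CD11c-low cells lists Hmgb2, a chromatin protein gene, at 0.76 ± 0.22 and Tubb5, a beta-tubulin gene, at -0.33 ± 0.19. Mki67, Top2a and Pcna, which mark dividing cells, were not listed in either table. No integrated stress response gene of 9 was listed, and of the 16 clock symbols the authors' deposited table of CD11c-low cells lists Csnk1e, a casein kinase gene, at 0.54 ± 0.15.

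**Figure D4:**
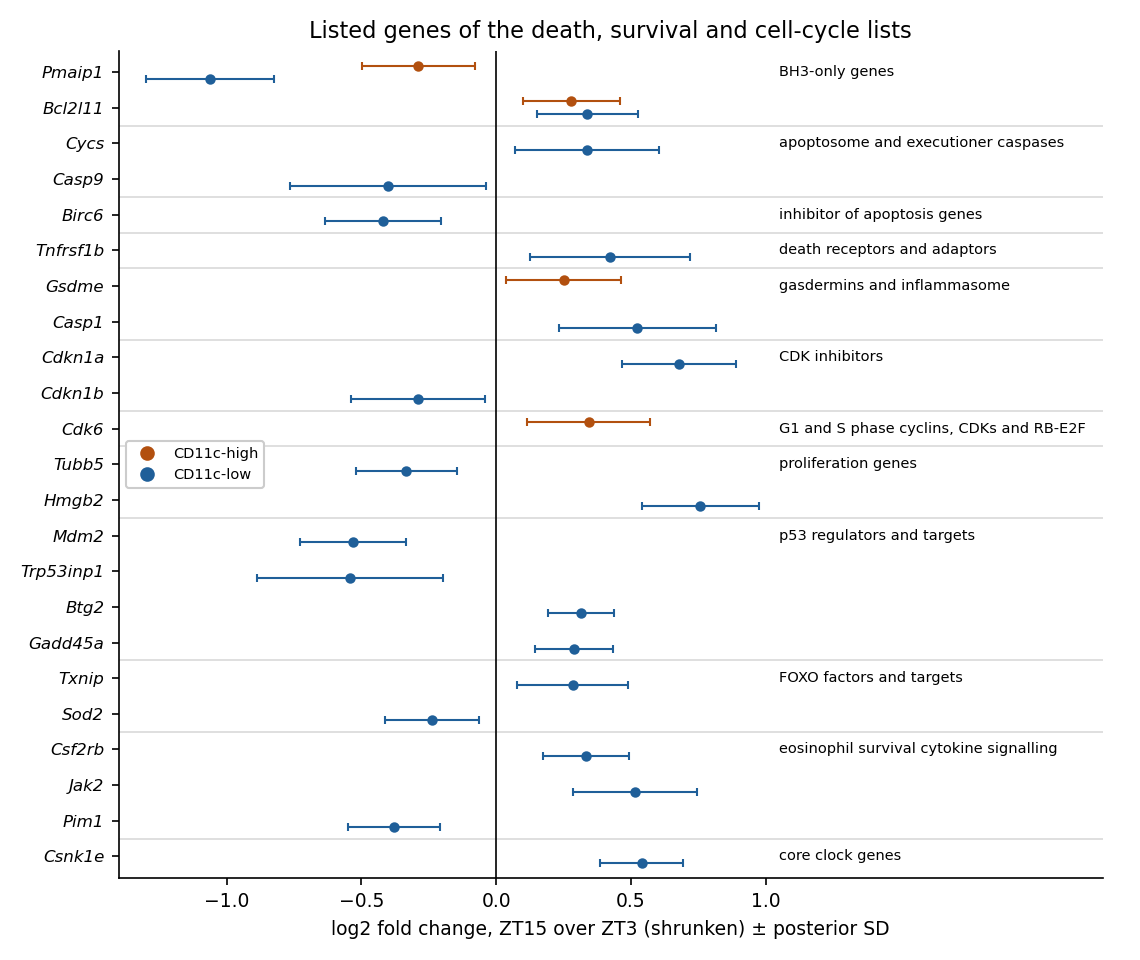
Shrunken log2 fold change of ZT15 over ZT3 with bars of 1 posterior SD for every listed gene of the death, survival and cell-cycle lists, in CD11c-high (orange) and CD11c-low cells (blue), each gene shown under the first list that holds it. The BH3-only, apoptosome, CDK inhibitor, p53 and FOXO lists each have listed genes on both sides of 0 in CD11c-low cells. Only the BH3-only and p53 lists have genes with an own false sign rate under 0.05 on both sides.

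Of 14 eosinophil markers, none was listed for CD11c-high and 4 for CD11c-low cells, 2 higher and 2 lower. The authors' deposited table gave log2 changes of -0.29 ± 0.14 for Adgre1, 0.26 ± 0.14 for Alox15, 0.23 ± 0.13 for Siglecf and -0.21 ± 0.16 for Adgre4, at mean normalised counts from 1227 for Adgre4 to 4887 for Alox15. Of 70 markers of other cell types, 1 was listed for CD11c-high and 6 for CD11c-low cells, 4 higher and 2 lower. Over all genes listed for CD11c-low cells, 52.2% were higher and 47.8% lower. For Hdc, which makes histamine in mast cells, basophils and other granulocytes, the authors' deposited tables gave 0.24 ± 0.19 in CD11c-high cells and 0.58 ± 0.20 in CD11c-low cells. For CD11c-low cells the authors' deposited table gave 0.52 ± 0.30 for Cd68, a macrophage gene, and -0.49 ± 0.33 for Cd74, the invariant chain of class II molecules. Further, the authors' deposited table of CD11c-low cells gave 0.24 ± 0.20 for the antibody gene Ighm and -0.35 ± 0.24 for the keratin gene Krt18. By the authors' deposited table, Gzma, a granzyme gene of T and NK cells, had the smallest s-value of these markers (3.83e-07) and a fitted log2 change of 20.99 ± 3.33, with 30.4 normalised counts on average. A fit that large gives no usable fold, and how many libraries its direction rests on could not be seen. Immunoglobulin segments were listed too, 7 higher and 2 lower in CD11c-high cells and 8 higher and 6 lower in CD11c-low cells. Epx, Prg2 and Ccr3, which define eosinophils, are not listed, so the sort label could not be checked against them. The levels of all markers that are not listed are unknown, and the part of other cells in the members' values was not tested.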

How the data were processed

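RNA from sorted duodenal eosinophils (16 libraries, 4 groups of 4) was analysed from the 2 tables that the authors deposited, 1 per CD11c subset. Per the submitters' processing notes, STAR 2.7.10b, DESeq2 1.38.3 and GRCm39 were used, with no role given. How reads were counted, against which annotation, and how fold changes were shrunken are points not given in the sources used here. Going by the file headers and labels, the signal that the authors deposited was taken as size-factor-normalised counts averaged over a subset's libraries. The errors of their log2 fold changes, as deposited, were taken as posterior standard deviations, which the headers do not state. The p-value-like column that the authors deposited holds s-values, all under 0.05, so called genes alone are listed and the number tested is unknown. The direction was taken from the tables' names. Library depth is unknown, and counting error could not be stated.

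Computed with Python 3.11.15, pandas 2.3.3 and NumPy 2.4.6 were folds, ranks, each gene's own false sign rate, differences between subsets, list counts, levels per transcript length and promoter motif matches. Members and lists were chosen with earlier results of these data known. Named are the members, up to 4 listed genes per list and table by smallest s-value, and the 3 genes nearest to each member in both tables. Alternatives were stricter s-values (0.01, 0.001), own false sign rates under 0.05, a mean normalised count of at least 50, a log2 change of at least 0.3 and a rescaling of the CD11c-high changes.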

Additional observations from a re-analysis of the deposited data

How the results depend on the processing

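Every value depends on the authors' call, and no library could be left out. No paired analysis was possible because no deposited column belongs to a single library, so the replicate numbers in the labels could not be used. In CD11c-high cells the 3 called members became 0 at a deposited s-value under 0.01, 0 under 0.001 and 0 with a log2 change of at least 0.3 in size; the 4 called genes of the pathway lists became 0, 0 and 1 under the same settings. In CD11c-low cells the 5 called members became 2 at an s-value under 0.01 and 2 under 0.001, Cdkn1a and Pmaip1 in each case, and 3 with an own false sign rate under 0.05, Bcl2l11 being the third. The 21 called genes of the pathway lists became 12 and 5 at the stricter s-values. Rescaling turned the Bcl2l11 difference, CD11c-high minus CD11c-low, to 0.16 (-0.06 as deposited), both within the SD; that of Pmaip1 was 0.55 (0.77 as deposited). The other counts stayed within 1.5 times. Low counts limit Casp9.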
